A study of Mus musculus with 36 samples.

Results

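Clade B serpins are intracellular protease inhibitors, and 5 of them were followed here through mouse natural killer (NK) cells: Serpinb9, Serpinb9b, Serpinb6b, Serpinb6a and Serpinb1a. The 5 genes were chosen by symbol, with earlier results of these data known, and each symbol matched 1 row in all 4 deposited expression tables, among 32940 genes in the table of sorted subsets and 56923 in each of the other 3. A serpin traps its target protease by offering a reactive loop as bait, and the cleaved serpin stays bound to the enzyme. Cytotoxic lymphocytes store granzymes, serine proteases that perforin delivers into a target cell, and the serpins in their own cytosol act on granzyme that leaks from the granules. Serpinb9 blocks granzyme B, Serpinb9b is a mouse inhibitor of granzyme M, Serpinb6b acts on granzyme A, Serpinb6a acts on cathepsin G and other trypsin-like proteases, and Serpinb1a acts on the neutrophil proteases elastase, cathepsin G and proteinase-3.

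RNA was sequenced in 36 libraries, in 12 groups of 3 biological replicates. The first 18 libraries came from mature CD27-CD11b+ splenic NK cells of wild-type C57BL/6 mice (WT, B2m+/+) and of mice lacking beta-2 microglobulin (KO, B2m-/-), in which surface MHC class I is largely missing. In each genotype the cells were sorted by inhibitory receptors: TP cells carried all 3 of Ly49C, Ly49I and NKG2A, SP cells carried Ly49I alone, and TN cells carried none. Another 6 came from NK cells sorted from splenocytes of WT mice, with 22 hours of vehicle or of the calcium ionophore ionomycin. The sample titles do not settle whether this treatment came before or after the sorting. A further 9 came from WT splenic NK cells after 48 hours in medium or on plates coated with antibody to NKp46 combined with antibody to either NKG2D or DNAM-1, all activating receptors. The last 3 came from CD27-CD11b+ NK cells of WT mice, sorted 10 days after subcutaneous injection of MC38 B2m-/- tumours (MC38 is a colon carcinoma line). Their genotype label is WT, while their column names hold the terms B2MKO and SP, whose meaning is not explained. Ages are not given in the labels. Values are TPM, a unit scaled per transcript length and per library, with mean ± SD and n = 3 unless stated. Groups are compared only within a table, on log2(TPM + 1), and genes are said to be called where the limma p, adjusted by Benjamini-Hochberg over all genes tested in that table, is under 0.05.

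B2m itself stood at 2915.39 to 3419.55 TPM in the 9 WT libraries and at 73.93 to 128.47 TPM in the 9 KO libraries. The NK marker list (7 of 7 genes above 0 in every group) summed to 8835.71 to 9905.72 TPM in the sorted subsets. Neutrophil markers, 8 genes, summed to 60.98 to 217.47 TPM in the KO TP libraries, with Elane at 0, and to at most 5.85 TPM in the other subset libraries. Markers of B and plasma cells, 6 genes with all 6 above 0, reached 212.81 to 456.74 TPM in KO TP against at most 50.56 TPM elsewhere in that table. Sequencing depth is not recorded in TPM, and the number of genes above 0 ran from 12290 to 18096 per library. In bulk RNA, fewer cells with a transcript and less transcript per cell cannot be told apart.

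Promoter sequences were found for 4 of the 5 genes in a RefSeq table (mouse build GRCm38.p6). Those of Serpinb9 and Serpinb9b are shown because these 2 neighbours moved together across the data. Each run is the 250 bases before the annotated start, plus strand, at chr13:33004291-33004540 for Serpinb9 and chr13:33027164-33027413 for Serpinb9b. Capitals mark the 6 stretches of at least 6 identical aligned bases that lie whole in both runs. The last 3 of them abut in Serpinb9 and are set apart by unaligned bases in Serpinb9b.
Serpinb9: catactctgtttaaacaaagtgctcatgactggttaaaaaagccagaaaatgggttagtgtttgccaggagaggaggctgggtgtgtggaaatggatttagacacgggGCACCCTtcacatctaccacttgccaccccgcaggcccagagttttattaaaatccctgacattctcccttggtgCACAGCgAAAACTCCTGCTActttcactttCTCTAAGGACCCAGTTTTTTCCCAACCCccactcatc
Serpinb9b: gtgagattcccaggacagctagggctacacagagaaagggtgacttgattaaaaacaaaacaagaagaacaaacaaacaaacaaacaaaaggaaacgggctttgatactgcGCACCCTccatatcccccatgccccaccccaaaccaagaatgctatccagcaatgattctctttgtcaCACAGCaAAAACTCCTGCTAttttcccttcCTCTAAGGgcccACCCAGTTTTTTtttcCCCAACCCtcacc
Over the 300-base windows of the table, which run on for 50 bases after the start, the 2 promoters aligned over 275 columns with 68.0% identity, and the longest stretch in common was 13 bases (AAAACTCCTGCTA). The window of Serpinb6b, which lies next to Serpinb9, aligned with that of Serpinb9 over only 39 columns, with 9 bases as the longest stretch in common.

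A search of both strands of these windows for 6 motifs found few matches, and matches of different motifs may overlap. TTTCNNTTT, the core of the interferon-stimulated response element, was present once each in the windows of Serpinb9, Serpinb9b, Serpinb6b and the upstream one of the 2 Serpinb6a starts, against 10.6% of all 32851 promoters. GGAAA, the NFAT core, had 2 matches in Serpinb9, 3 in Serpinb9b, 1 in Serpinb6b, and 4 and 1 at the upstream and downstream starts of Serpinb6a, against 61.3% of promoters with at least 1. TGTGGT, a RUNX site, was found once in Serpinb9 and in none of the other member windows, against 16.8% of promoters. TTCNNNGAA, a STAT site held by 8.30% of promoters, was found only at the same Serpinb6a start, with 2 matches. TGANTCA (AP-1, 7.81% of promoters) and GGTGTGA (T-box, 3.98% of promoters) were absent from these windows.

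Exact sequence in common between the longest transcripts of the 5 genes was short, and how the authors' counting placed reads between them was not tested. In GENCODE M21, 13 of 3423 words of 50 bases (0.380%) in the longest Serpinb9 transcript also occur in Serpinb9b, and the longest common stretch is 62 bases. Serpinb6a and Serpinb6b have 8 such words in common, out of 1605 in Serpinb6a (0.498%). No other combination of the 5 had any.

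Serpinb9 and Serpinb6b were the most abundant of the 5 in sorted WT cells, Serpinb9b and Serpinb6a were lower, and Serpinb1a was near 0. In WT TP cells the levels per length were 246 ± 6.98 TPM for Serpinb6b, 222 ± 3.60 for Serpinb9, 49.1 ± 2.46 for Serpinb9b, 39.9 ± 6.97 for Serpinb6a and 1.63 ± 1.24 for Serpinb1a. By mean level in that group, Serpinb6b ranked 661 and Serpinb9 744 among all genes. Their libraries did not overlap in WT TP cells (237.81 to 251.04 against 218.77 to 225.75 TPM), but they did in WT SP and WT TN cells, so the order of these top 2 was not the same in each group. Summed over the members and 23 other clade B serpins, the family held 561 ± 15.1 TPM in WT TP and 957 ± 35.4 TPM in KO TP cells.

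**Figure D1:**
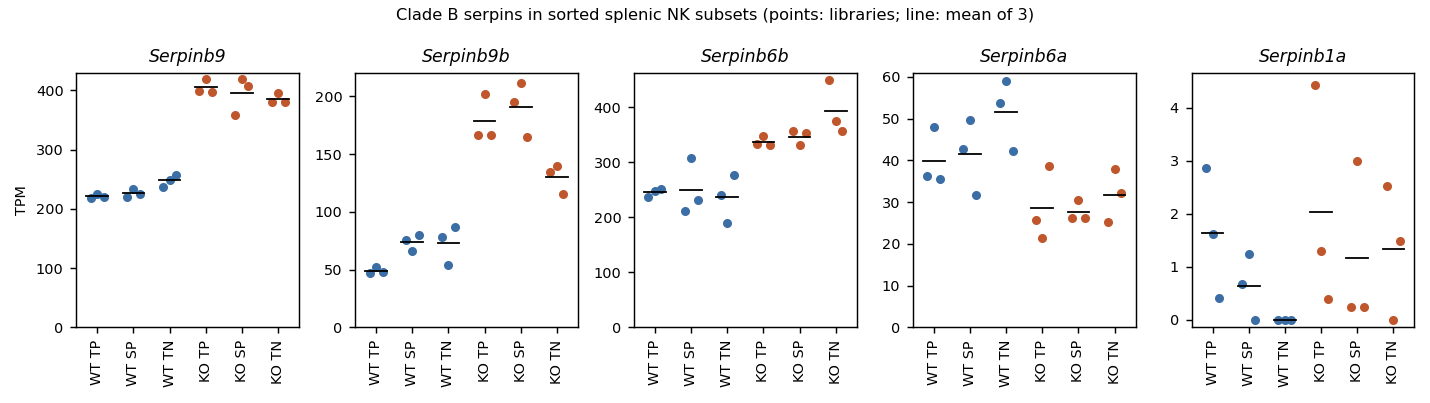
TPM of each serpin in the 18 libraries of sorted splenic NK cells, with 1 point per library, a line at the mean of 3, blue for WT and orange for KO. All 9 KO libraries lie above all 9 WT libraries for Serpinb9, Serpinb9b and Serpinb6b, while Serpinb6a tends the other way with overlap.

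The comparison of KO with WT cells asks which genes differ in NK cells that developed without normal MHC class I. Serpinb9 and Serpinb9b rose in KO cells of all 3 subsets, Serpinb6b was called higher in TN cells, and Serpinb6a and Serpinb1a were not called in any. Genes called among 12018 tested made up 1.59% for TP, 1.35% for SP and 0.716% for TN cells, and 27 genes (0.225%) were called higher in all 3. For TP, SP and TN the members' median log2 changes were 0.46, 0.48 and 0.74, beside 0.04, 0.03 and 0.02 over all genes tested. Because the 5 were picked with such results in view, these adjusted p-values describe where each gene stands in the whole table.

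Serpinb9 (ENSMUSG00000045827), the inhibitor of granzyme B, had 218.77, 225.75 and 220.73 TPM in WT TP and 399.24, 418.92 and 397.02 TPM in KO TP cells. It had 220.59, 233.80 and 225.79 TPM in WT SP and 358.59, 418.80 and 407.92 in KO SP cells. In TN cells it had 237.18, 249.23 and 257.74 TPM in WT and 380.08, 395.29 and 380.84 in KO. Replicates lay close together, and the lowest KO library (358.59 TPM) was well above the highest WT library (257.74 TPM). For TP, SP and TN cells the log2 changes were 0.87 (95% interval 0.72 to 1.01), 0.80 (0.65 to 0.94) and 0.63 (0.49 to 0.78), with limma adjusted p-values of 1.23e-06, 3.49e-06 and 6.59e-05.

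Serpinb9b (ENSMUSG00000021403), the granzyme M inhibitor, showed the largest change of the 5 in every subset but TN, where the uncertain change of Serpinb1a was larger. It had 47.26, 51.93 and 48.23 TPM in WT TP and 166.76, 201.88 and 166.82 in KO TP cells, a 3.57-fold difference on the log2(TPM + 1) scale. In SP cells it had 75.77, 66.16 and 80.02 TPM in WT and 194.95, 211.87 and 165.27 in KO. In TN cells it had 78.08, 53.96 and 86.77 TPM in WT and 134.97, 139.47 and 115.90 in KO. The genotypes did not overlap in any subset, as for 18.3%, 18.9% and 13.7% of all genes tested in TP, SP and TN cells. The gap was widest in TP cells, where the WT level was lowest. Log2 changes were 1.83 (95% interval 1.51 to 2.16), 1.35 (1.02 to 1.68) and 0.85 (0.52 to 1.18) in TP, SP and TN cells, with limma adjusted p-values of 1.64e-06, 7.01e-05 and 0.0115. Its share of all clade B TPM went from 8.76% ± 0.215 in WT TP to 18.6% ± 1.40 in KO TP cells. The TN call was lost without KO TN replicate 1 (adjusted p 0.0563), without KO TN replicate 2 (0.0705) and with only the compared groups in the limma fit (0.235).

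Serpinb6b (ENSMUSG00000042842), the granzyme A inhibitor, had 237.81, 248.27 and 251.04 TPM in WT TP and 333.46, 348.33 and 330.79 in KO TP cells. In SP cells it had 212.42, 307.71 and 231.96 TPM in WT and 356.41, 331.19 and 352.71 in KO. In TN cells it had 241.65, 190.78 and 276.27 TPM in WT and 449.16, 374.78 and 357.28 in KO. The lowest of the 9 KO libraries (330.79 TPM) stood above the highest of the 9 WT libraries (307.71 TPM), a narrow gap beside the spread within WT SP and TN cells. Of all genes tested, 99 (0.824%) had all 9 KO libraries above all 9 WT libraries, and Serpinb9, Serpinb9b and Serpinb6b were among them. Column names such as WT1_TP and WT1_SP read as 1 mouse per number, though the labels do not say so. The 9 libraries of a genotype may then not be independent. The log2 changes of Serpinb6b in the TP, SP and TN subsets were 0.46, 0.48 and 0.74, with limma adjusted p-values of 0.122, 0.0988 and 0.0112. The TN call was lost without KO TN replicate 1, which has the highest value (limma adjusted p 0.0689), without WT TN replicate 2, which has the lowest (0.0609), and with only the compared groups (0.184). The SP change passed the threshold without WT SP replicate 2 (0.64, adjusted p 0.0212), as did the TP change when only those 2 groups were fitted (adjusted p 0.0409).

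Serpinb6a (ENSMUSG00000060147), the inhibitor of cathepsin G, pointed the other way without passing the test. It ran from 31.81 through a median of 42.75 to 58.97 TPM in the 9 WT libraries and from 21.39 through 26.16 to 38.55 TPM in the 9 KO libraries. The ranges overlap between 31.81 and 38.55 TPM. SP and TN cells taken alone did not overlap, as for 18.9% and 13.7% of all genes tested. Log2 changes were -0.50, -0.55 and -0.69 in TP, SP and TN cells, with limma adjusted p-values of 0.394, 0.333 and 0.245. Serpinb1a (ENSMUSG00000044734), the inhibitor of neutrophil proteases, ran from 0 to 2.87 TPM in WT and from 0 to 4.43 TPM in KO libraries and was listed at 0 in all 3 WT TN libraries. At this level its intervals span more than 2 log2 units, and neither a rise nor a fall was detectable.

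**Figure D2:**
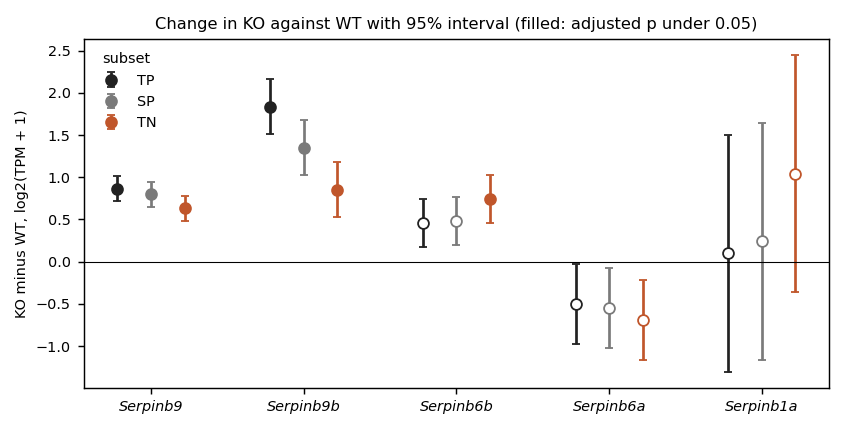
KO minus WT difference in log2(TPM + 1) for each serpin in TP, SP and TN cells, with the 95% interval from the limma fit and filled points at an adjusted p under 0.05. Serpinb9b falls from 1.83 in TP to 0.85 in TN cells, Serpinb6a lies below 0 in all 3 subsets, and the intervals of Serpinb1a are wide.

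Other measures moved with genotype and their part in these differences was not tested. The neutrophil and B cell markers above were high in KO TP libraries only. From TP through SP to TN cells the change was 0.87, 0.80 and 0.63 for Serpinb9 and 1.83, 1.35 and 0.85 for Serpinb9b. T cell markers summed to 12.51 to 17.61 TPM in KO TP cells against 2.64 to 4.88 in WT TP, with Cd3g called higher. Ncr1, an NK marker, was called lower in KO TP and SP cells, at means of 1896 against 2306 TPM in TP and 1792 against 2129 in SP. It was the only 1 of the 7 NK markers called there. Of the 7, 4 had a positive change in TP (median log2 0.06) and 3 in SP (median -0.035). Of 10 heat shock protein genes, a list added after the values were seen, 7 had all 9 KO libraries above all 9 WT libraries, such as Hspa8 (598.48 to 1189.12 TPM in WT, 1562.90 to 2659.54 in KO). Their part in the serpin difference was not tested. Rescaling by median ratios or quantile normalization kept the KO calls of Serpinb9 and Serpinb9b in all 3 subsets.

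The 5 genes lie in 1 cluster on chromosome 13, where Serpinb6b, Serpinb9 and Serpinb9b are immediate neighbours in RefSeq order. From Serpinb1a to Serpinb6a the annotation (GRCm38.p6) lists 16 protein-coding genes, all clade B serpins, and 6 of them were tested in sorted cells. Of the other clade B serpins, 17 of 23 were at 0 TPM in every subset library, among them Serpinb9c, Serpinb9d, Serpinb9e, Serpinb9f and Serpinb9g (named after their values were seen). Serpinb1b, directly beyond Serpinb9b, averaged 3.46 TPM in the table, with KO minus WT log2 differences of 1.20, 1.27 and -0.18 for TP, SP and TN cells (limma adjusted p 0.242, 0.209 and 0.94). The nearest flanking genes on both sides, Wrnip1 (adjusted p 0.787 to 0.994) and Nqo2 (0.331 to 0.756), were not called in limma, and neither was Ripk1 beyond Nqo2.

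**Figure D3:**
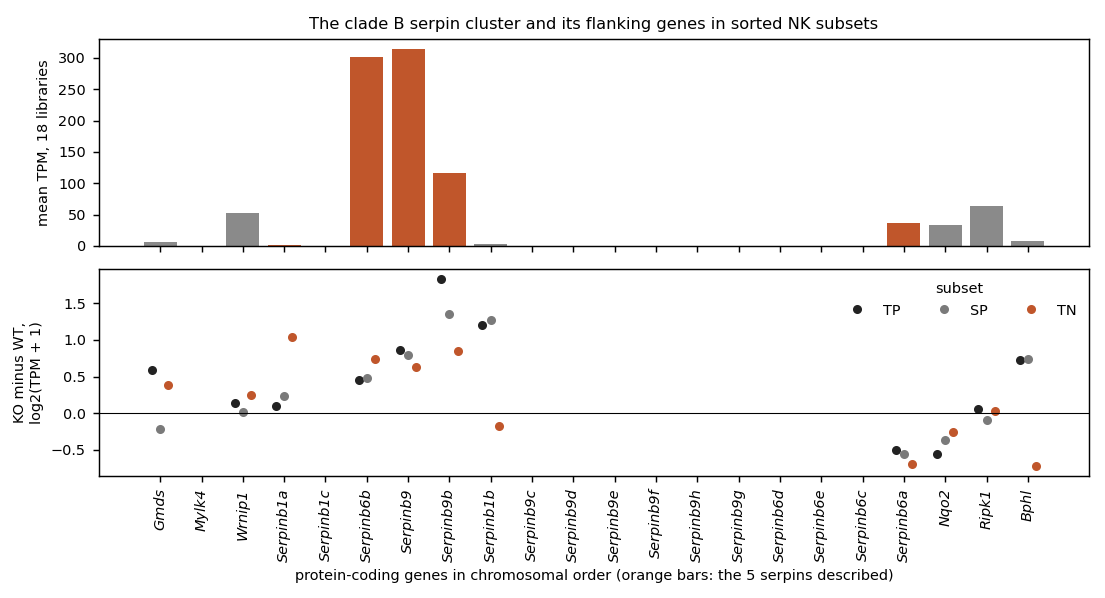
Protein-coding genes around the clade B cluster in chromosomal order, evenly spaced: mean TPM over 18 libraries of sorted cells (upper panel, bars) and KO minus WT log2(TPM + 1) for tested genes (lower panel, points by subset). The bars of Serpinb6b, Serpinb9 and Serpinb9b stand out at 302, 314 and 116 TPM, and the genes from Serpinb9c to Serpinb6c are at or near 0.

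Comparing subsets within a genotype asks what goes with inhibitory receptor use, and none of the 5 serpins was called in TN or SP cells against TP cells. TN was not tested against SP cells. Called genes made up 1.31% of those tested in WT TN against TP, 0.191% in WT SP against TP, 0.524% in KO TN against TP and 0.200% in KO SP against TP cells. Serpinb9b was higher by 0.53 in WT TN (limma adjusted p 0.117, or 0.0111 without WT TN replicate 2) and by 0.58 in WT SP (0.233) than in WT TP cells. No WT SP or TN library of Serpinb9b overlapped the WT TP libraries, as for 10.6% (SP) and 14.6% (TN) of all genes tested. Among KO cells its change was -0.45 in TN (limma adjusted p 0.433) and 0.09 in SP (adjusted p 1.00) against TP. The TN estimates of the 2 genotypes thus had opposite directions, and neither was called.

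The difference between these 2 directions was tested as an interaction, for which 3 genes (0.0250%) were called, none of them a member. The interaction was -0.98 for Serpinb9b (95% interval -1.45 to -0.53, limma adjusted p 0.213, or 0.0295 without WT TN replicate 2) and -0.23 for Serpinb9 (-0.44 to -0.02, adjusted p 0.739). Serpinb9 was at 237.18 to 257.74 TPM in WT TN against 218.77 to 225.75 in WT TP, and at 380.08 to 395.29 in KO TN against 397.02 to 418.92 in KO TP. Of all genes tested, 37 (0.308%) had, as Serpinb9 and Serpinb9b did, every WT TN library above WT TP and every KO TN library below KO TP. Serpinb6b in KO TN cells lay above KO TP in all libraries (log2 change 0.22, limma adjusted p 0.910), unlike Serpinb9 and Serpinb9b. Between these groups 13.2% of all genes tested did not overlap in either direction.

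The proteases that these serpins meet were read from a list of 20 granule and cathepsin genes, of which 12 were tested in sorted cells. Gzma, which encodes granzyme A, was the most abundant gene of WT TP cells by mean TPM (9967 ± 206), and Gzmb, which encodes granzyme B, stood at 951 ± 49.2 TPM. In WT TN against TP cells, where 1.31% of all genes tested were called, 3 of the 12 were called, all lower. These were Gzma (-0.32, limma adjusted p 0.0110), Gzmb (-0.42, 0.0131) and the pore protein gene Prf1 (-0.33, 0.0343). In KO against WT cells none was called in TP. Ctsc, whose product cathepsin C activates granzymes, was called higher in SP (0.58, limma adjusted p 0.00562) and TN (0.58, 0.00909) cells, and Gzmb in TN cells (0.38, 0.0431). Gzmm, the target of Serpinb9b, had only 19.4 ± 3.72 TPM in WT TP and 10.9 ± 3.29 TPM in KO TP cells, less than Serpinb9b itself, and was not called. The neutrophil protease genes Elane, Ctsg and Prtn3 were at 0 in all 18 libraries.

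Set against its protease, Serpinb9 stood at 23.4 ± 1.35, 24.9 ± 1.74 and 35.1 ± 3.1 TPM per 100 TPM of Gzmb in the TP, SP and TN subsets of WT mice. The KO ratios were 36.0 ± 1.84, 34.7 ± 3.24 and 41.9 ± 3.22 in the same order. WT TN libraries (32.1 to 38.3) did not overlap WT TP (21.8 to 24.4) and lay across the range of KO TP (33.9 to 37.4). WT TN cells had a lower Gzmb level than KO TP cells, 710 ± 51.0 against 1129 ± 93.6 TPM, and a lower Serpinb9 level, 248 ± 10.3 against 405 ± 12.1 TPM.

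**Figure D4:**
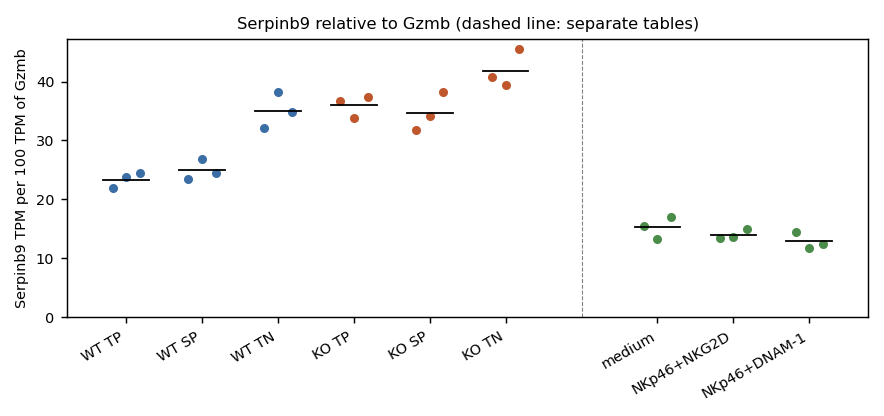
Serpinb9 TPM per 100 TPM of Gzmb in each library of the sorted subsets (left) and of the antibody cultures (right), with lines at the mean of 3; the 2 tables were normalized separately. WT TN libraries (32.1 to 38.3) overlap KO TP (33.9 to 37.4) and lie above WT TP (21.8 to 24.4). The 3 antibody groups lie between 11.8 and 17.0 and are not compared with the sorted subsets.

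Ionomycin gives a sustained calcium signal without receptor ligation, and its comparison with vehicle asks which genes differ in NK cells after that treatment. Of 14372 genes tested 418 (2.91%) were called, and none of the 5 serpins was among them. The members' median log2 change was -1.45, against 0.00 over all genes. Serpinb9 had 988.10, 539.98 and 198.54 TPM with vehicle and 236.44, 165.16 and 113.70 with ionomycin, and the groups overlapped through vehicle replicate 3. Serpinb9b had 290.45, 113.40 and 82.63 TPM with vehicle and 78.63, 50.10 and 32.47 with ionomycin. Serpinb6b had 810.29, 419.56 and 335.59 TPM with vehicle and 277.54, 118.92 and 149.94 with ionomycin. The Serpinb9b and Serpinb6b groups did not overlap, as for 20.1% of all genes tested. Vehicle replicate 1 was the highest library for all 3 genes.

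Log2 differences were -1.52 for Serpinb9 (95% interval -2.73 to -0.31, limma adjusted p 0.213), -1.45 for Serpinb9b (-2.57 to -0.34, adjusted p 0.192) and -1.50 for Serpinb6b (-2.41 to -0.60, adjusted p 0.0956). Vehicle replicate 3 held neutrophil markers at 377.07 TPM and ionomycin replicate 3 at 120.21 TPM, against at most 2.19 TPM in the other 4 libraries, and their part in these values was not tested. The heat shock protein sum was 6314.03, 3735.69 and 2059.11 TPM in vehicle replicates 1, 2 and 3, falling in the same order as Serpinb9, Serpinb9b and Serpinb6b. With ionomycin it was 4637.22, 3937.70 and 4196.70 TPM, and its part was not tested. NK markers differed too: the sum of 7 ran from 3731.20 to 6055.99 TPM with vehicle and from 3685.08 to 4345.50 with ionomycin, with a median log2 difference of -0.78. Of these 7, Ncr1 (the NKp46 gene) and Itga2 were called lower by limma, with Ncr1 at 795 TPM on average with vehicle and 123 with ionomycin. T cell markers summed to 2.24 to 7.87 TPM with vehicle and 12.78 to 25.27 with ionomycin, and the part of both lists in the serpin values was not tested. Without vehicle replicate 3 the differences of Serpinb9 (-2.14, limma adjusted p 0.0166) and Serpinb6b (-1.77, adjusted p 0.0493) passed the threshold, and that of Serpinb9b did not (-1.83, adjusted p 0.0769). Serpinb6a had 17.46, 16.83 and 35.95 TPM with vehicle and 33.89, 34.60 and 34.57 TPM with ionomycin, a difference of 0.62 (adjusted p 0.495) with overlap at vehicle replicate 3. Serpinb1a ran from 0 to 7.16 TPM over the 6 libraries. Among the proteases Gzma was called lower (-2.21, limma adjusted p 0.00767) and Srgn, the granule proteoglycan gene, higher (1.54, 0.0203). Gzmb went from 2364 ± 2167 to 485 ± 324 TPM without a call.

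**Figure D5:**
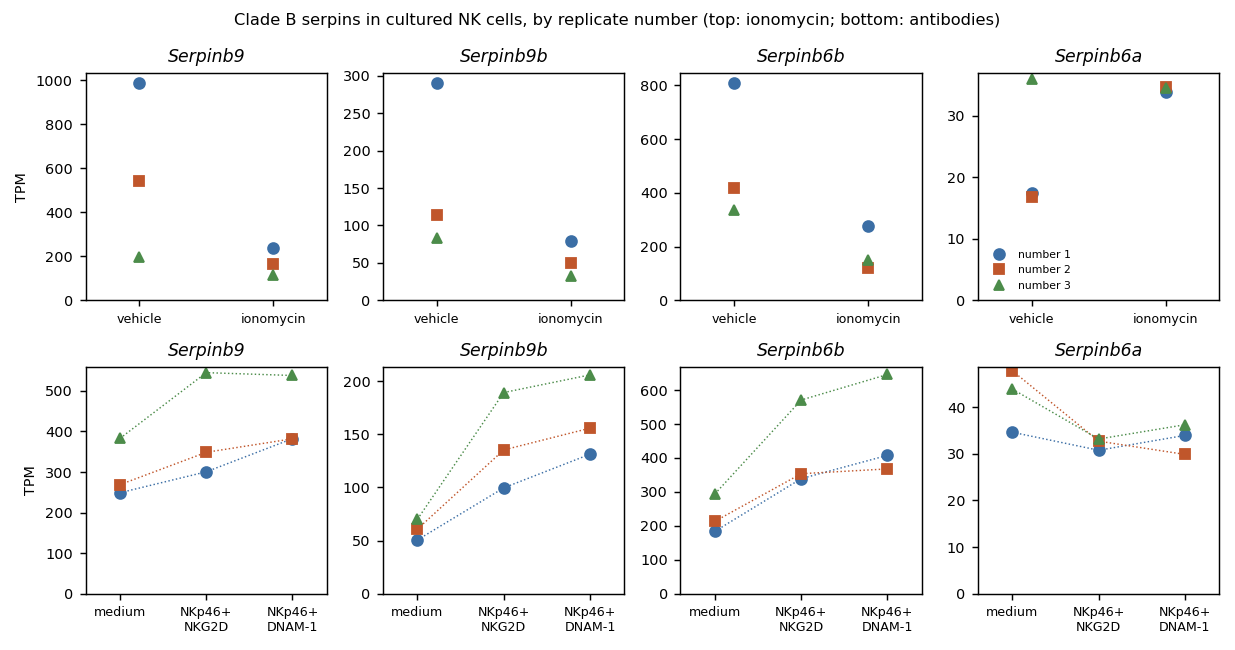
TPM of 4 serpins by library in the ionomycin cultures (upper row) and the antibody cultures (lower row), with 1 symbol per replicate number and dotted lines joining equal numbers in the antibody table. With ionomycin, Serpinb9, Serpinb9b and Serpinb6b means are lower, down to 172, 53.7 and 182 TPM, and on antibodies each library lies above the medium library of its number for these 3 genes.

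Plate-bound antibodies stimulate NK cells through pairs of activating receptors, and the comparison with medium asks which genes respond. Serpinb9b rose on NKp46 and DNAM-1 antibodies, the 1 member called there, and none was called on NKp46 and NKG2D antibodies. Called genes made up 0.782% of 13689 tested in the first comparison and 0.431% in the second. Serpinb9b had 50.58, 60.80 and 70.12 TPM in medium, 99.57, 135.27 and 189.26 TPM on NKp46 and NKG2D, and 131.22, 155.73 and 205.87 TPM on NKp46 and DNAM-1. Neither stimulated group overlapped medium, as for 17.3% of all genes tested on NKG2D and 21.1% on DNAM-1 antibodies. Log2 changes were 1.18 (95% interval 0.63 to 1.71, limma adjusted p 0.0824) and 1.41 (0.87 to 1.95, adjusted p 0.0337). The DNAM-1 call was lost under 8 of 15 alternative settings, among them 5 of the 6 in which 1 library was left out. In 6 of the 9 libraries the sample title and the column name gave different groups, the column name was followed, and by title the changes were 0.31 and 0.68 with no call.

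Serpinb6b had 183.90, 213.46 and 294.22 TPM in medium, 338.93, 353.53 and 570.71 TPM on NKp46 and NKG2D, and 407.63, 367.66 and 645.95 TPM on NKp46 and DNAM-1. Both stimulated groups lay above medium in all libraries, where 17.3% and 21.1% of all genes tested did not overlap in either direction. The log2 differences of Serpinb6b were 0.85 (limma adjusted p 0.191) and 1.02 (0.111). Serpinb9 had 248.88, 268.83 and 382.98 TPM in medium, 300.51, 348.60 and 545.01 TPM on NKp46 and NKG2D, and 382.21, 381.90 and 538.01 TPM on NKp46 and DNAM-1. Its groups overlapped because medium replicate 3 was high, and the differences were 0.38 (adjusted p 0.473) and 0.54 (0.275) in limma. Replicate 3 was the highest in all 3 groups for Serpinb9, Serpinb9b and Serpinb6b. Column names such as WT1 read as 1 mouse per number, though the labels do not say so. With that number as a block, Serpinb9b and Serpinb6b passed the threshold on both antibody combinations (limma adjusted p 0.00387 and 0.00569 on NKG2D, 0.00146 and 0.0021 on DNAM-1), and Serpinb9 on DNAM-1 alone (adjusted p 0.0176, against 0.0655 on NKG2D).

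Serpinb6a had 34.63, 47.81 and 43.88 TPM in medium, 30.77, 32.72 and 33.18 on NKp46 and NKG2D, and 33.96, 29.88 and 36.24 on NKp46 and DNAM-1. Its differences were -0.36 (limma adjusted p 0.347) and -0.32 (0.356). Serpinb1a was at 3.59 ± 1.21 TPM in medium, 1.77 ± 1.53 on NKG2D and 1.24 ± 0.642 on DNAM-1 antibodies, without a call. Between the 2 antibody combinations, where 0.0146% of genes were called, no member was called, and the Serpinb9b difference was 0.24 with an interval of -0.30 to 0.78. The heat shock protein sum ranged from 5547.40 to 7273.92 TPM on antibodies and from 3929.78 to 5626.29 TPM in medium, and its part in these values was not tested. Serpinb9 per 100 TPM of Gzmb was 15.3 ± 1.82 in medium, 14.0 ± 0.868 on NKG2D and 12.9 ± 1.36 on DNAM-1 antibodies, with overlap between groups. T cell markers summed to 27.64 to 71.62 TPM in medium, 20.78 to 27.57 on NKG2D and 20.14 to 39.60 on DNAM-1 antibodies, with Cd4 and Cd8b1 at 0 in all 3 groups. Cd3e averaged 19.9, 4.25 and 5.63 TPM in that order, none of the 3 T cell genes tested was called, all 3 had negative differences on both combinations, and their part in the serpin values was not tested. Of the 15 protease and granule genes tested none was called on either combination.

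The tumour libraries, labelled WT but with B2MKO in their column names, held B2m at 3928.87 to 5196.03 TPM. In NK cells from tumours, which have no control group in their table, Serpinb6b was the most abundant of the 5 at 676.60, 789.70 and 480.13 TPM. Serpinb9 followed at 536.70, 543.75 and 411.40 TPM, and the libraries of these 2 genes overlapped. Serpinb9b had 98.61, 62.29 and 79.36 TPM, Serpinb6a 24.54, 30.06 and 58.03, and Serpinb1a 1.85, 0.49 and 0.94. Serpinb6b thus made up 50.4% ± 4.32 and Serpinb9 39.1% ± 1.02 of clade B TPM there. Serpinb1b averaged 7.95 ± 8.87 TPM with a range from 0 to 17.52, and Serpinb1c 2.16 ± 3.75 TPM. These levels were not tested against other tables, which were normalized separately.

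Averaged over the 3 tables with comparisons, Serpinb9, Serpinb9b and Serpinb6b followed each other more closely than any other gene compared followed them. Likeness was the mean of 3 within-table Pearson correlations of log2(TPM + 1), over 18, 6 and 9 libraries. Each member was compared with 10104 other genes tested in all 3 tables. Genes without a unique symbol and gene models with Gm or Rik symbols were left out. It was 0.917 between Serpinb9 and Serpinb9b, 0.897 between Serpinb9 and Serpinb6b and 0.891 between Serpinb9b and Serpinb6b, the top 2 ranks for each of the 3 genes. Within a single table another gene could come closer than a member. For Serpinb9 in sorted cells Hnrnpa2b1 had 0.844 and Serpinb6b 0.842. For Serpinb6b with ionomycin Hnrnpa2b1 had 0.938 and Serpinb9 0.907. For Serpinb9b on antibodies Gzmb had 0.948 and Serpinb9 0.860. The libraries of a table share its group differences, so these values describe a joint pattern and carry no p. The third rank went to Hnrnpa2b1, an RNA-binding protein gene, for Serpinb9 (0.855) and Serpinb6b (0.880), and to Gzmb for Serpinb9b (0.848, with 0.671 in sorted cells, 0.924 with ionomycin and 0.948 on antibodies). Serpinb6a, at the far end of the cluster, correlated negatively with all 3, from -0.689 to -0.718 in sorted cells. Its closest genes were Serinc5 (0.789), Usp22 (0.760) and Nr4a1 (0.748), an early response gene of receptor signalling. Serpinb1a came closest to Nod1 (0.769), Zfp740 (0.724) and Paxbp1 (0.722), at levels where 1 library can set the value.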

How the data were processed

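RNA-seq of mouse NK cells was read from 4 gene tables that the authors deposited in TPM. STAR, RSEM and build GRCm39 are named in the submitters' processing notes, without versions. The 5 members and the gene lists were chosen with earlier results of these data known, and the heat shock list was added after values were seen. TPM values were analysed as log2(TPM + 1) for genes averaging 1 TPM or more across the libraries of a table, in 1 fit per table with limma 3.58.1 (R 4.3.3) with a variance trend, two-sided, with Benjamini-Hochberg adjustment within each comparison. Folds are on that scale, which understates changes of low genes. TPM holds no read depth, so counting precision is unknown. With 3 against 3, no exact permutation test can go below p = 0.1, so none is reported. Titles name biological replicates, and nothing further says that they are separate mice, so p-values measure the spread between these samples. Antibody libraries were grouped by their column names, which conflict with the titles in 6 of 9. Beside the members, the text names other clade B serpins averaging 1 TPM or more, protease genes called in a comparison, and the 3 genes nearest each member in pattern. The fit was tested on simulated data. Alternatives were another pseudocount, other filters, 2 rescalings, no variance trend, only the compared groups, each library left out, the replicate number as a block, and grouping by title. Gene coordinates of GRCm39 were not used here, and promoters carry RefSeq's GRCm38.p6.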

Additional observations from a re-analysis of the deposited data

Results flagged for a closer look

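Serpinb9 and Serpinb9b were picked out because their TN against TP difference had opposite directions in the 2 genotypes. Every WT TN library was above every WT TP library, and every KO TN library was below every KO TP library. This held for 37 (0.308%) of all genes tested. The KO difference minus the WT difference was -0.232 for Serpinb9 (limma adjusted p 0.739) and -0.985 for Serpinb9b (adjusted p 0.213), and neither passed the threshold.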

How the results depend on the processing

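The 34 member log2 changes examined gave 479 values under the alternatives, of which 448 kept direction and side of the threshold, 14 lost the call, 15 gained one and 2 reversed: Serpinb6a by sample title, at 0.12 on NKG2D and 0.177 on DNAM-1 antibodies. The KO calls of Serpinb9 and Serpinb9b in TP and SP cells and of Serpinb9 in TN cells held under all 13 alternatives each. Members called in KO against WT TN cells went from 3 to 1 with only the compared groups, and ranged from 1 to 3 with a library left out. On DNAM-1 antibodies 1 member was called, against 0 with no filter, 0 with no variance trend, 0 by sample title and 0 to 2 with a library left out. Counts of 0 became 0 to 1 with a library left out in WT TN against TP, the interaction and NKG2D, and 0 to 2 with ionomycin. The cause was not tested. TPM records no depth, which limits what can be said of Serpinb1a.

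With the replicate number as a block, 3 members were called with ionomycin (Serpinb9, limma adjusted p 0.0306; Serpinb9b, 0.0307; Serpinb6b, 0.0151), 2 on NKG2D and 3 on DNAM-1 antibodies, and member calls in the other blocked comparisons stayed at 0. The numbers were not shown to pair samples: same-numbered deviations correlated above 0.1 in 1 of 9 combinations for antibodies, 1 of 3 for ionomycin and 0 of 18 for sorted subsets. Mean correlations for same against different numbers were 0.064 against -0.032 for antibodies and 0.062 against -0.031 for ionomycin. For sorted subsets they were 0.01 against -0.005. KO and WT cells come from different mice, so that comparison was not blocked.

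Among all genes, the fit to only the compared groups called 43 (from 157) in WT TN against TP, 12 (23) in WT SP against TP, 91 (191), 84 (162) and 32 (86) in KO against WT TP, SP and TN, 37 (59) on NKG2D, 38 (107) on DNAM-1 and 4 (2) between antibodies. With no filter it was 41 (24) in KO SP against TP, 10 (3) for the interaction, 185 (418) with ionomycin and 45 (107) on DNAM-1. No variance trend gave 7 for the interaction and 172 with ionomycin. The block gave 239 on NKG2D, 528 on DNAM-1, 1 for the interaction and 0 between antibodies, and titles gave 0, 1 and 0 on NKG2D, DNAM-1 and between antibodies. A pseudocount of 0.1 gave 0 for the interaction and 1 between antibodies, and a mean of at least 5 TPM gave 1 and 0. Leaving out a library gave 43 to 712 with ionomycin, 31 to 311 on NKG2D, 26 to 604 on DNAM-1, 108 to 151 in KO against WT TP, 88 to 163 in SP, 52 to 114 in TN, 102 to 152 in WT TN against TP, 41 to 51 in KO TN against TP, 2 to 5 for the interaction and 0 to 1 between antibodies.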
